A study of Mus musculus with 24 samples.

Results

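Mbp, Pmp22, Prx, Mag, Sox10 and S100b, 6 genes of Schwann cells and their myelin, were followed across the gastrocnemius muscle of 24 mice. They are 6 of the 55416 genes counted, and all 6 were among the 16408 genes with enough reads to be tested. The genes were chosen by name, as a sign of how much nerve a muscle sample held, and they were chosen from group levels that had already been seen in these libraries. Their fold changes between groups are therefore a description, from which nothing is read about the genes as a group.

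RNA was sequenced from 12 males, 6 sham and 6 SMC, and from 12 females, 6 sham and 6 SMC. SMC is small mouse cage housing, a narrow acrylic box that restricts movement, and it lasted 8 weeks. Sham mice were the ambulatory controls. All mice were wild type, of the strain labelled C56BL6J, were bought at 8 weeks of age and carried no transgene, and all were fasted and anaesthetised before muscle was taken. The comparisons address whether restricted movement shifted the muscle transcriptome in each sex. The labels pair no mouse of one group with a mouse of another, and which mice shared a cage is not given in the sources used here.

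Schwann cells are the glia of peripheral nerve. Those on large axons, which include the motor and sensory axons that run within a muscle, wrap the axon in compact myelin, a stack of lipid membrane held together by a small number of abundant proteins. Those on small axons do not make myelin. Mbp and Pmp22 encode proteins of compact myelin, Prx encodes periaxin, a scaffold of the outer Schwann cell membrane that binds the dystrophin-related protein Drp2, and Mag encodes an adhesion molecule of the membrane that faces the axon. Sox10 is the transcription factor that Schwann cells need throughout their life, and it acts together with Egr2 on myelin genes. S100b is a calcium-binding protein widely used as a Schwann cell marker. Pmp22 and S100b are also made outside nerve.

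The 250 bases before the annotated starts of Prx and Mag are printed because the pair differ in what follows, Prx varying almost in step with Mbp and Mag much less so. Both come from RefSeq on GRCm38.p6, which is not the build named with the counts. The windows were searched on both strands for ACAAAG, the core bound by SOX proteins, and for GCGTGGG, a core bound by EGR proteins, and the capitals mark every match. The search was made after the values were known. ACAAAG stands in 16.5% and GCGTGGG in 4.30% of the 32851 windows of 250 bases in the table.

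Prx, chr7:27499074-27499323, plus strand: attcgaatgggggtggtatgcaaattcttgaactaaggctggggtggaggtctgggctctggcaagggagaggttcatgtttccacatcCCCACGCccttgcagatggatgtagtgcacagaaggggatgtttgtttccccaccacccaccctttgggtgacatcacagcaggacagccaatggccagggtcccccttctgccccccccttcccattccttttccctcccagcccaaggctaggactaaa

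Mag, most upstream of 3 listed starts, chr7:30914923-30915172, minus strand: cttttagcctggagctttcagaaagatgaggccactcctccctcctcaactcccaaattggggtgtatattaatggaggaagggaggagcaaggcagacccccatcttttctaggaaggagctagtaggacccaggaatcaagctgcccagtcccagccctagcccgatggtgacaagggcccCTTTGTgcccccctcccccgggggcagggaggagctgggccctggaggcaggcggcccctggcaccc

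The Prx window held 1 match to GCGTGGG, which begins 161 bases before the start and is read on the opposite strand, and no ACAAAG. The Mag window held 1 match to ACAAAG, 67 bases before the start and also on the opposite strand, and no GCGTGGG. The 2 words do not overlap. The single window of S100b and the 4 windows of Pmp22 held neither. The Mag window at the most downstream listed start held neither word. Of the 4 genes searched, 1 held each word in at least 1 window. That is a count of genes, some with several windows, while the shares given above are per window. A match is a stretch of letters and was not shown to be bound.

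Libraries held between 23026627 and 36880413 counts, and all 24 matched their labelled sex. At least 3 libraries stood apart in ways that touch other cell types. Female sham replicate 11 carried epidermal transcripts: 9 keratinocyte genes, listed after this was seen, summed to 1394 CPM (reads scaled to a common library size) there against 0.341 to 3.57 CPM in the other 23 libraries, and Krt10, a keratin of upper epidermis, stood at 294 CPM against at most 0.729. Male sham replicate 4 and female sham replicate 7 were low in slow fibre genes, with mean log2 CPM of 1.54 and 1.26 where the other 22 libraries lay between 5.78 and 8.58. Female sham replicate 11 was the highest of its group in Sox10 and Mag, and the other 2 libraries were neither the highest nor the lowest of their groups in any of the 6 genes. Without replicate 11, Mag differed between male and female sham mice by -0.94 in place of -1.002 on the log2 scale, and none of the 6 genes was called in any comparison. In bulk muscle, fewer Schwann cells and less RNA per Schwann cell cannot be told apart.

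Transcripts of the 6 genes were a small share of muscle RNA. Over all 24 mice the mean level was 29.7 CPM for Pmp22, 24.6 for Mbp, 12.6 for Prx, 2.05 for Sox10, 0.802 for S100b and 0.701 for Mag. Each level was also divided by the gene's exon length, merged over all annotated transcripts, which was 8469 bases for Mbp and 2354 for Pmp22. On that scale the order was Pmp22 at 12.6 ± 3.28 CPM per kb (SD, n = 24), Mbp at 2.90 ± 1.09, Prx at 2.26 ± 0.784, Sox10 at 0.672 ± 0.288, S100b at 0.540 ± 0.216 and Mag at 0.172 ± 0.0677. Mbp and Prx lay within 1 SD of each other, as did Sox10 and S100b. A gene read mainly from a shorter transcript would stand too low on this scale. Which transcripts were present was not tested, so the order holds for merged lengths only. The reads behind these values numbered 268 to 1661 per library for Mbp and only 4 to 43 for Mag.

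The genes of compact myelin come first. Mbp, whose product holds the cytoplasmic faces of the membrane together, ran from 9.35 CPM through a median of 20.5 to 29.1 in male sham mice and from 18.98 through 23.9 to 31.6 in male SMC mice. In females it ran from 14.8 through 20.8 to 43.6 in sham mice and from 19.4 through 28.4 to 49.7 in SMC mice. Each pair of groups overlapped. The lowest male sham library was replicate 3, and the highest of the female groups were replicates 8 (sham) and 23 (SMC). Female sham replicate 7 came next to replicate 8, at 34.8 CPM. The difference between SMC and sham was 0.32 ± 0.270 (log2 fold change ± SE derived from the test statistic of the fit) in males and 0.25 ± 0.269 in females.

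Pmp22, a membrane protein to whose gene dosage peripheral myelin is sensitive, was the least variable of the 6. It ran from 21.04 CPM through 24.4 to 29.4 in male sham mice and from 21.5 through 27.1 to 35.6 in male SMC mice. In females it ran from 23.2 through 31.4 to 54.9 in sham mice and from 27.4 through 30.7 to 45.7 in SMC mice. The female sham group held the highest library of all, replicate 8, and the groups overlapped throughout. The difference between SMC and sham was 0.15 ± 0.169 in males and -0.042 ± 0.168 in females on the log2 scale.

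Prx and Mag belong to membrane outside compact myelin. Prx ran from 5.31 CPM through 10.6 to 11.5 in male sham mice and from 9.89 through 12.8 to 16.5 in male SMC mice. In females it ran from 7.74 through 12.2 to 20.8 in sham mice and from 9.62 through 14.5 to 23.7 in SMC mice. The 2 lowest values of the series, 5.31 and 6.17 CPM, were both male sham, and the other 4 male sham mice overlapped the male SMC mice. The log2 difference between SMC and sham was 0.45 ± 0.243 in males and 0.11 ± 0.240 in females. Prx shares 300 exonic bases with Gm15541 on the opposite strand, and whether counting kept strands apart is not given in the sources used here.

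Mag ran from 0.133 CPM through 0.399 to 0.793 in male sham mice and from 0.544 through 0.726 to 1.03 in male SMC mice. In females it ran from 0.624 through 0.796 to 0.969 in sham mice and from 0.507 through 0.851 to 1.29 in SMC mice. Of the male sham mice, 5 lay below the lowest male SMC mouse, and replicate 5 alone lay among the male SMC values. The log2 difference between SMC and sham was 0.90 ± 0.320 in males and 0.13 ± 0.299 in females. These are small counts, 4 to 20 reads in the male sham libraries, and without replicate 5 the male difference was 1.19.

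Sox10, the transcription factor, ran from 0.244 CPM through 1.19 to 2.93 in male sham mice and from 1.63 through 2.14 to 3.02 in male SMC mice. In females it ran from 1.15 through 2.14 to 2.98 in sham mice and from 1.57 through 2.09 to 4.31 in SMC mice. It had the widest spread of the 6, with 7 reads in male sham replicate 3 and 144 in female SMC replicate 23. The log2 difference between SMC and sham was 0.78 ± 0.353 in males, or 1.15 without male sham replicate 5, and 0.26 ± 0.343 in females.

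S100b ran from 0.371 CPM through 0.687 to 0.972 in male sham mice and from 0.538 through 0.652 to 1.11 in male SMC mice. In females it ran from 0.558 through 0.711 to 1.67 in sham mice and from 0.328 through 0.922 to 1.44 in SMC mice. The male medians were nearly level and all groups overlapped. The log2 difference between SMC and sham was 0.20 ± 0.323 in males and 0.081 ± 0.313 in females.

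**Figure D1:**
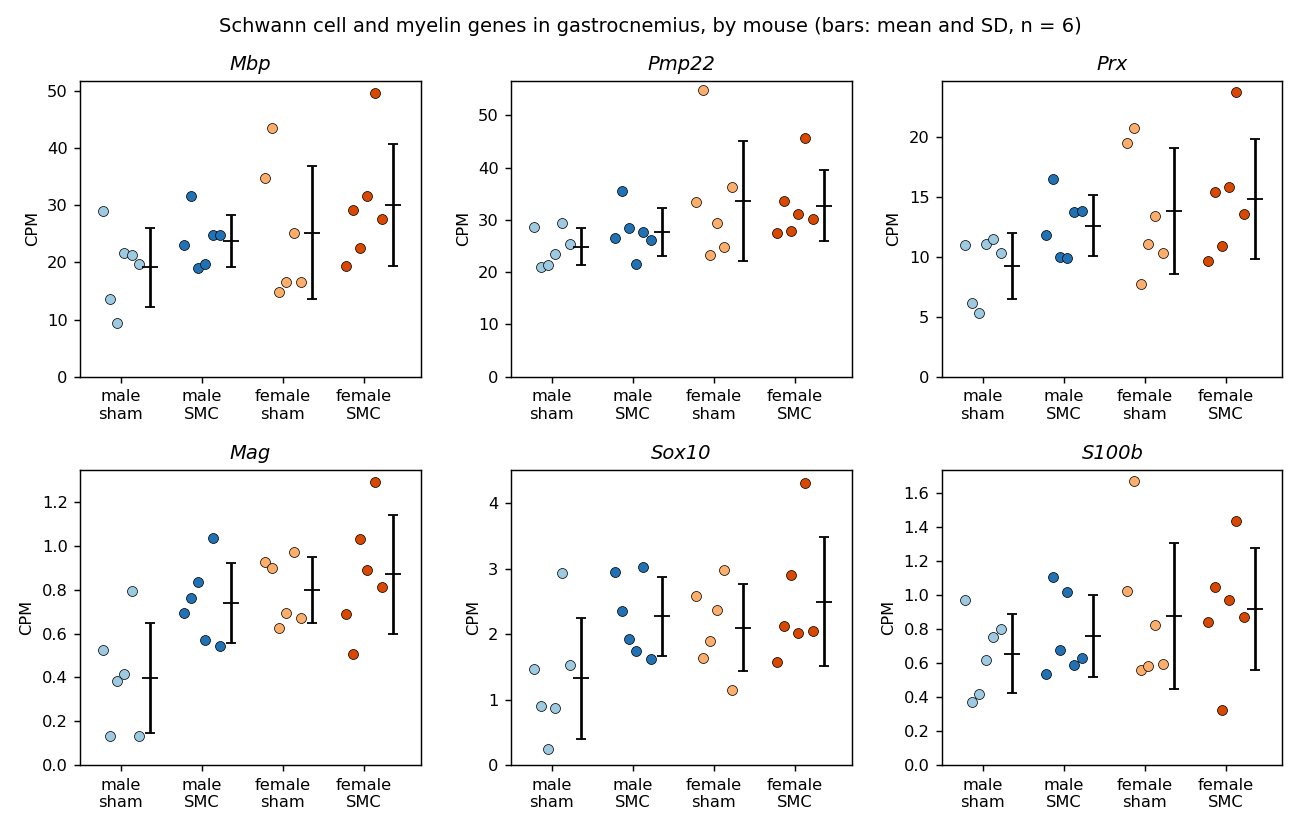
CPM of each of the 6 genes in every mouse (points), with the mean and SD of each group of 6 (bars). All groups overlap in every panel, and Mag in male sham mice, 0.133 to 0.793 CPM, overlaps male SMC mice in 1 mouse.

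In males, 6 of 6 genes were higher in SMC than in sham mice. Their median log2 difference was 0.38, where the median over all tested genes was -0.0044. None of the 6 passed a false discovery rate (FDR) of 0.05 in the edgeR quasi-likelihood fit over all tested genes, where 0% of genes passed, and none had groups that did not overlap, as 0.902% of genes did. At an unadjusted p under 0.05 there were 2 of 6, Sox10 and Mag, and 1805 of all genes. DESeq2, which gave no adjusted p for Mag and S100b, called none of the other 4, and limma called none of the 6, while they called 133 and 93 genes of the whole table.

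In females, 5 of 6 genes were higher in SMC than in sham mice, with a median log2 difference of 0.12 against -0.011 over all genes. None of the 6 passed the FDR in edgeR, where 0.341% of genes passed, 20 higher and 36 lower, and none was without overlap, as 1.03% of genes were. At an unadjusted p under 0.05 there were 0 of 6 and 2049 of all genes, and DESeq2 and limma also called none of the 6. The direction in females depends on scaling and on single mice. Scaled by library totals alone, which moved the median of all genes to -0.15 in females and -0.13 in males, 2 of 6 were higher in SMC females, still 6 of 6 in SMC males, and the split of female calls became 13 higher and 202 lower. Without female SMC replicate 23, Mag, Prx and S100b turned to -0.017, -0.069 and -0.089, and without female sham replicate 8 Pmp22 turned to 0.15. Smaller turns came without female sham replicate 9 (Prx to -0.012 and S100b to -0.024), without female sham replicate 10 (S100b to -0.014), without female SMC replicates 19 and 21 (Pmp22 to 0.0090 and 0.0055) and in limma (Pmp22 to 0.064). Mbp and Sox10 kept their sign in females under every alternative run.

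The difference of the SMC response between the sexes, male minus female, was 0.77 ± 0.437 on the log2 scale for Mag, 0.53 ± 0.492 for Sox10 and 0.34 ± 0.342 for Prx, and under 0.20 for the other 3. None of the 6 passed the FDR in edgeR, where 0% of genes passed, with 0 of 6 and 841 of all genes at an unadjusted p under 0.05. DESeq2 called none of the 6 and 1 gene in all. A response of these genes that differs by sex was not shown, and the 95% interval for Mag ran from -0.13 to 1.67. The value for Mbp turned under 9 alternatives and that for S100b under 4, going as low as -0.17 and -0.18 without female sham replicate 8.

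Between sham mice of the 2 sexes, all 6 genes were lower in males, with a median log2 difference of -0.51 against -0.0022 over all genes. Mag stood at 0.397 ± 0.250 CPM (SD, n = 6) in male sham and 0.797 ± 0.151 in female sham mice, a log2 difference of -1.002 ± 0.319. Pmp22 stood at 24.9 ± 3.59 and 33.7 ± 11.5 CPM, a difference of -0.44 ± 0.169. Prx stood at 9.21 ± 2.73 and 13.8 ± 5.25 CPM, a difference of -0.58 ± 0.243. The differences of Sox10, S100b and Mbp were -0.66 ± 0.355, -0.41 ± 0.320 and -0.40 ± 0.270.

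None of the 6 passed the FDR in edgeR for this comparison, where 1.97% of genes passed, 137 higher and 187 lower in males, and none was without overlap, as 1.13% of genes were. Scaled by library totals alone the split of calls was 97 higher and 82 lower, with 6 of 6 genes still lower in males. At an unadjusted p under 0.05 there were 3 of 6, Pmp22, Prx and Mag, and 2538 of all genes. Mag is the gene on which the tools divide. Its adjusted p was 0.104 in edgeR, 0.0469 in DESeq2 and 0.0391 in limma, and 0.0261 in edgeR without male sham replicate 5. Without female sham replicate 8, the differences of Mbp, Pmp22 and S100b were -0.17, -0.24 and -0.10. The comparisons of sham with SMC males and of sham males with sham females share the 6 male sham mice, so low levels in those mice enter both.

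**Figure D2:**
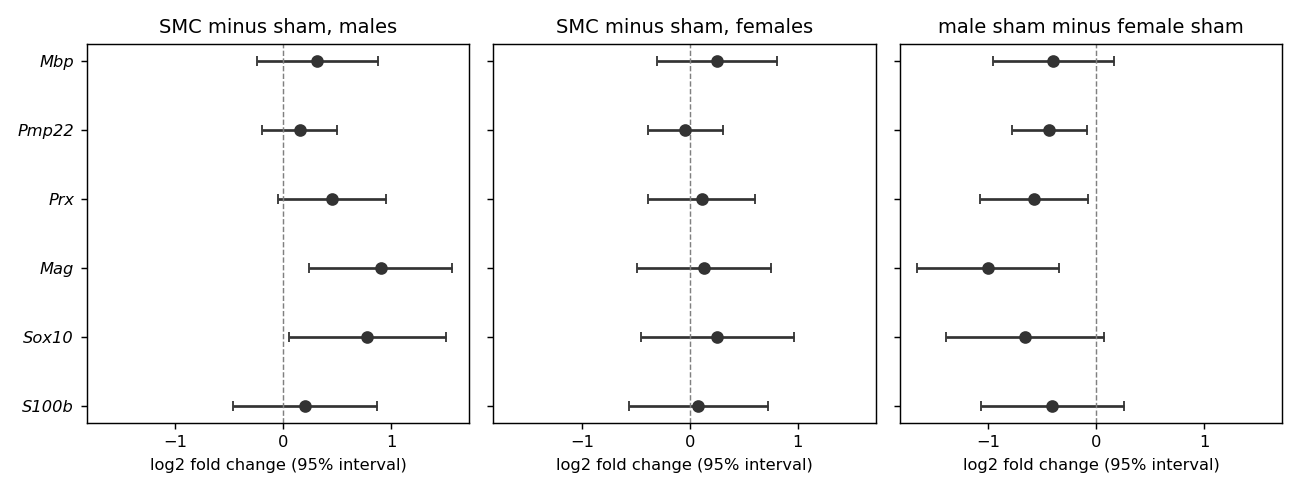
Log2 fold change of each gene (points) with the 95% interval of the edgeR fit (bars) for SMC minus sham in males, SMC minus sham in females, and male sham minus female sham. Intervals that clear 0 are those of Mag and Sox10 in males and of Pmp22, Prx and Mag between sham mice, though no gene of the 6 was called at the FDR over 16408 genes.

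Within groups, all 6 genes varied from mouse to mouse more than the median gene. The SD of log2 CPM within groups was 0.508 for Mbp, 0.304 for Pmp22, 0.456 for Prx, 0.512 for Mag, 0.671 for Sox10 and 0.533 for S100b, where the median tested gene had 0.261. Counting error alone at the mean count would give 0.0549 for Mbp and 0.0770 for Prx, far below the spread seen. For Mag and S100b the same figures were 0.327 and 0.303. With the mean deviation of the 6 genes, library total had a Pearson's r of 0.130, normalization factor 0.142 and the share of reads in the 10 most abundant genes -0.106 over 24 mice. The number of genes detected had the highest, 0.227 (Spearman's rho 0.369), and its part in the spread was not tested.

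The spread was shared in part. In 5 mice all 6 genes lay above their group mean, in 3 mice all 6 lay below, and in 16 mice they were mixed. Mice high in every gene were male sham replicates 1 and 5, female sham replicate 7, male SMC replicate 14 and female SMC replicate 23, and mice low in every gene were male sham replicate 2, female sham replicate 9 and female SMC replicate 19. Each of the 4 groups held at least 1 of these 8 mice.

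With group means removed, the deviations of all 15 pairs of genes were positively correlated over the 24 mice, with a median Pearson's r of 0.556 and a range of 0.207 to 0.961. Of the 15 pairs, 8 passed an adjusted p of 0.05 by Pearson's r and 6 by Spearman's rho, in a two-sided permutation test within groups with Benjamini-Hochberg adjustment over the 15 pairs. The median r was 0.806 in male sham, 0.691 in female sham and 0.706 in female SMC mice and 0.320 in male SMC mice, with 6 mice in each, and a difference between these values was not tested. Without the mice highest in these genes, female SMC replicate 23 and female sham replicate 8, all 15 pairs were still positive and the median r was 0.435.

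Mbp and Prx formed the tightest pair. Pearson's r was 0.961 and Spearman's rho 0.968 over 24 mice, both with a permutation p of 1e-05, the smallest 100000 resamples can give, and an adjusted p of 0.00015. The value was 0.954 without male sham replicate 3 and female sham replicate 8, the mice farthest from the median of Mbp, and it lay between 0.933 and 0.994 within the 4 groups. The ratio of Prx to Mbp in CPM was 0.520 ± 0.0555 (SD, n = 24) and ran from 0.378 to 0.666, while Mbp itself spanned a 5.32-fold range. In male sham replicate 1, which had the lowest ratio, Mbp was 29.1 CPM and Prx 10.98 CPM.

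S100b and Pmp22 followed at some distance. S100b had an r of 0.772 with Mbp (rho 0.809, adjusted permutation p of 0.000525) and 0.718 without the same 2 far mice, and within groups it ran from 0.256 in male SMC to 0.974 in female sham mice. Pmp22 had an r of 0.736 with Mbp (rho 0.680, adjusted permutation p of 0.000787) and 0.679 without those mice. Its ratio to Mbp was wide, from 0.920 in female SMC replicate 23 to 2.28 in male sham replicate 3, the mice with the highest and the lowest Mbp.

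Sox10 and Mag were the loosest. Against the mean of the other 5 genes, r was 0.910 for Mbp and 0.910 for Prx, 0.703 for Pmp22, 0.662 for S100b, 0.488 for Sox10 and 0.421 for Mag. Sox10 with Mbp had an r of 0.558 (rho 0.453, adjusted permutation p of 0.0248 and 0.0674), and 0.544 without the far mice. Mag with Mbp had an r of 0.398 (rho 0.485, adjusted permutation p of 0.124 and 0.0565), and 0.484 without them. Mag is also the gene with the fewest reads, and what part counting error has in its low r was not tested.

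**Figure D3:**
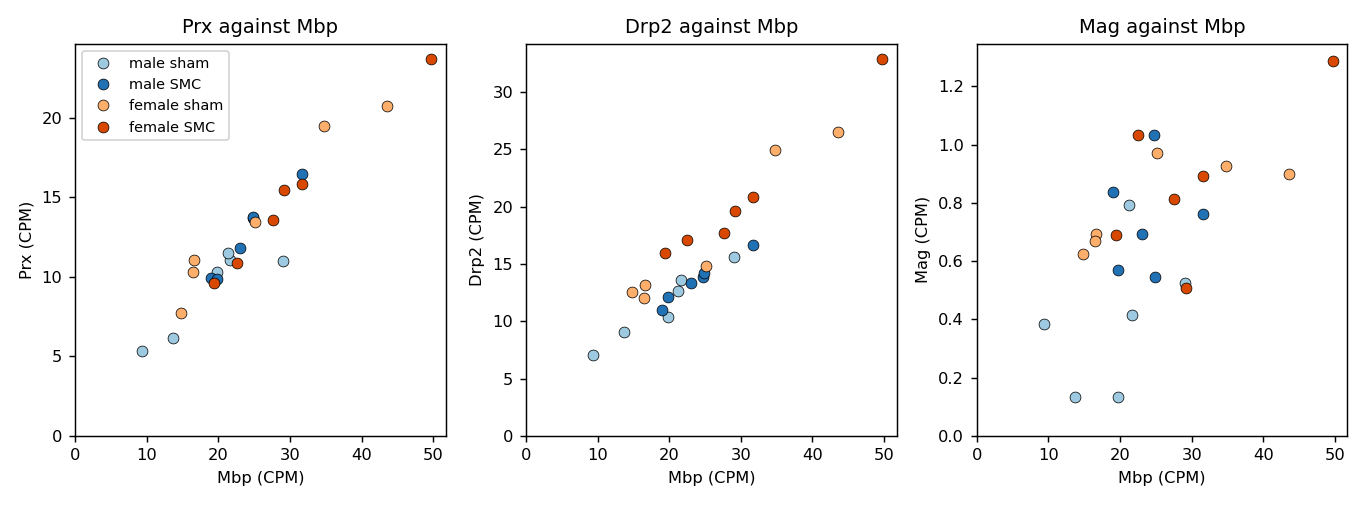
CPM of Prx, of Drp2 and of Mag against CPM of Mbp in each of the 24 mice, coloured by group. Prx and Drp2 lie close to a line from the lowest mouse (Mbp at 9.35 CPM) to the highest (49.7 CPM), and Mag scatters.

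The genes whose pattern over the 24 mice was most like the mean deviation of the 6 were mostly other myelin genes. This likeness is a Pearson's r with group means removed, given without a test, and its median over all tested genes was 0.0147, with 5% to 95% of genes between -0.406 and 0.438. Among the 10 most alike were Drp2 at 0.917 and a mean of 15.7 CPM, and the raft proteolipid gene Mal at 0.887. The same 10 held Gm13111 at 0.863, Plekha4 at 0.853, Cldn19, a claudin of Schwann cell junctions, at 0.840, Kif1a, an axonal transport motor, at 0.836, Dusp15 at 0.834 and Ugt8a, which makes the myelin lipid galactosylceramide, at 0.828. Only 14 genes beyond the 6 were over 0.8.

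Drp2 ran beside Mbp in each mouse, with a ratio of 0.651 ± 0.0931 (SD, n = 24) in CPM. That ratio was 0.617 ± 0.0856 in male sham, 0.571 ± 0.0282 in male SMC, 0.713 ± 0.1003 in female sham and 0.702 ± 0.0698 in female SMC mice. Drp2 itself ran from 7.05 to 15.6 CPM in male sham mice and from 10.97 to 16.6 CPM in male SMC mice, and these groups overlapped.

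Other proteins of peripheral myelin and its junctions lay on the same side of the sham levels as the 6 in males. Of 14 such genes, 11 had enough reads to be tested, and Gjb1, Pmp2 and Cmtm5 had not. All 11 were higher in SMC males than in their controls (median log2 difference 0.36), 8 of 11 were higher in SMC females, with a median of 0.12, and all 11 were lower in male sham than in female sham mice, with a median of -0.57. Over all tested genes, 49.1% were higher in SMC males, 47.6% in SMC females and 49.6% in male sham than in female sham mice. The 11 genes varied with the 6 from mouse to mouse, so their directions are not independent of each other or of the 6. The male comparison and the one between sham mice also share the male sham mice. None passed the FDR in any comparison. Drp2, the partner of periaxin, differed by 0.25 ± 0.217 in males and 0.26 ± 0.213 in females, and Cnp, an enzyme of uncompacted myelin membrane, by 0.22 ± 0.123 and -0.043 ± 0.123. The likeness of these 11 to the 6 genes had a median of 0.822 and was 0.551 at its lowest.

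Enzymes of myelin lipids were split. Ugt8a had a likeness of 0.828, while Aspa, which releases acetate from N-acetylaspartate, had -0.033 and the higher level of 4.998 CPM. Fa2h, which hydroxylates the fatty acids of myelin lipids and is also active in skin, stood at 15.04 CPM in the library with epidermal transcripts, female sham replicate 11, and at most 1.98 CPM elsewhere. Its likeness was 0.521 over all 24 mice and 0.907 without that library. Itgb4, the integrin that anchors both Schwann cells and keratinocytes to their basal lamina, stood at 44.5 CPM there, and its likeness went from 0.654 to 0.879 without it. No enzyme of the 3 tested passed the FDR in any comparison.

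Signal and receptor genes of Schwann cells had lower likenesses, with a median of 0.268, or 0.418 without female sham replicate 11. The highest over all 24 mice were Itgb4 at 0.654, Dhh at 0.628 and Lgi4 at 0.581. Of the 9 signal and receptor genes tested of 10, 7 were higher and 2 lower in SMC than in sham males, 1 higher and 8 lower in SMC females, and 0 higher and 9 lower in male sham than in female sham mice, and none passed the FDR. These directions rested in part on female sham replicate 11. Without it 5 were higher and 4 lower in SMC females, with the median log2 difference going from -0.13 to 0.039, and 1 was higher and 8 lower in male sham mice, with the median going from -0.46 to -0.13. Dag1, the dystroglycan gene, abundant in muscle fibres and at 319 CPM here, had a likeness of 0.265, and Itga6 of -0.332. Erbb3, the receptor through which Schwann cells respond to axonal neuregulin, had one of -0.052, or -0.0997 without female sham replicate 11, where it stood at 23.1 CPM.

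Transcription factors with roles in Schwann cells, other than Sox10, did not share the pattern. Of 6 tested of 7, none passed the FDR in any comparison, and their median likeness was 0.019. Tead1, at 389 CPM, had -0.520, Zeb2, at 69.6 CPM, 0.344, Nab1, at 12.1 CPM, 0.0996 and Nab2, at 4.45 CPM, 0.119. All were more abundant than Sox10 at 2.05 CPM, and which cells their reads came from was not tested. Egr2, which acts with Sox10 in myelination, had -0.061 at a mean of 2.55 CPM.

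Markers of Schwann cells without myelin or after nerve injury were mixed. Of 12 such genes 7 were tested, with a median likeness of 0.174 and none past the FDR. Scn7a, a sodium channel gene of nonmyelinating Schwann cells, had 0.491 at 17.7 CPM, and L1cam, an adhesion molecule of the same cells, 0.579. Jun, the factor of the repair state, had 0.165 at 143 CPM and Ncam1 0.033, and both are also expressed by muscle. Gfap, Sox2, Gap43, Olig1 and Shh, further marks of injury and of immature cells, had at most 8 reads in any library and were not tested.

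Transcripts of axons, whose cell bodies lie outside the muscle, were scarce. Of 10 axon and neuron genes, 7 were not tested for want of reads, among them the neurofilament genes Nefl, Nefm and Nefh. Chat, the enzyme of acetylcholine synthesis in motor neurons, had 0 reads in 23 libraries, which allows up to 0.0788 to 0.146 CPM (3 counts, per library), and 34 reads in female sham replicate 11, where Snap25 and Syt1 of the synapse also had 84 and 76 reads. The 3 tested, Stmn2, Uchl1 and Prph, had likenesses between -0.151 and -0.043. Opalin of central oligodendrocytes had 0 reads in all 24 libraries, which allows the same range of levels. Mobp, of the same cells, had 16 reads in female sham replicate 11 and at most 3 in any other library. Mog had at most 4 reads in any library, and none of these oligodendrocyte genes was tested. The melanocyte list had 1 gene tested of 5, Dct, with a likeness of -0.178.

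**Figure D4:**
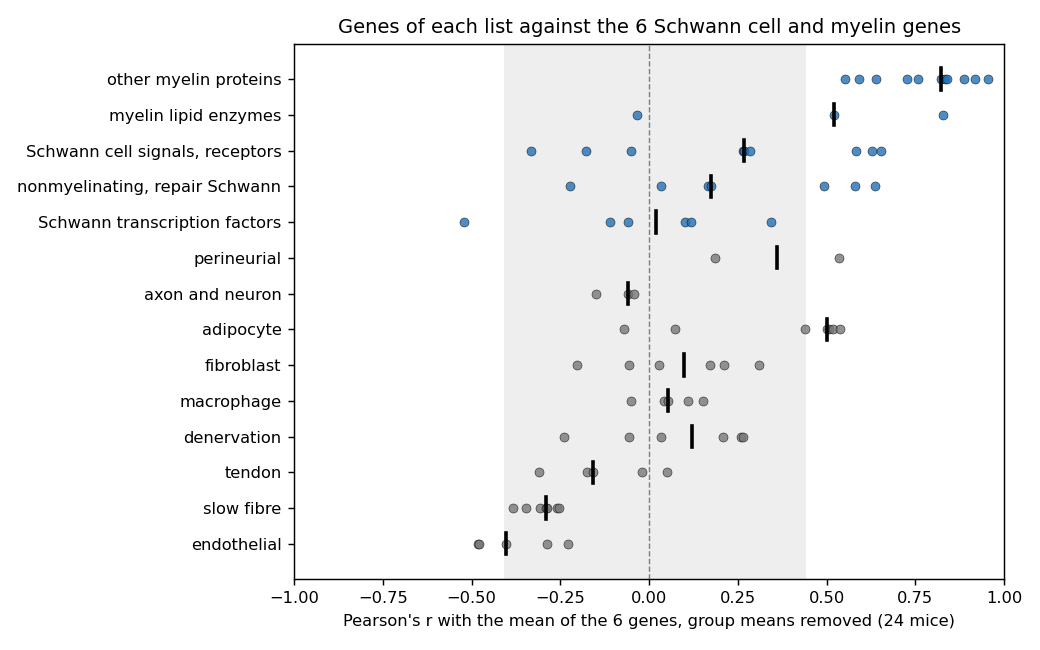
Pearson's r over 24 mice between each tested gene of a list (points) and the mean deviation of the 6 genes, group means removed. The black tick is the list's median, the grey band holds 5% to 95% of all tested genes (-0.406 to 0.438), and blue marks lists of Schwann cells. Other myelin proteins, at 0.551 or more, have a median of 0.822.

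Among markers of other cells, most of those of fat varied with the myelin genes. The 7 adipocyte genes had a median likeness of 0.501, with Plin1 at 0.501, Cidec at 0.508 and Adipoq at 0.440, though Fabp4 was at 0.073 and Pparg at -0.071. Their summed level ran from 70.1 to 136 CPM in male sham, 77.1 to 94.1 in male SMC, 69.0 to 131 in female sham and 82.6 to 232 CPM in female SMC mice. That sum was mostly Fabp4, at a mean of 74.0 CPM, where the next gene, Plin1, had 8.27 CPM. Plin1 was highest in female SMC replicate 20, at 39.0 CPM, and next in female SMC replicate 23, at 24.3 CPM, the mouse also highest in Mbp, Prx, Mag and Sox10. Of the 7, 1 was higher in SMC than in sham males and 7 in SMC females, and none passed the FDR. The part of fat content in the levels of the 6 genes was not tested.

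Slc2a1, the glucose transporter of the perineurium among other cells, had a likeness of 0.534, and Cldn1, the other perineurial gene, 0.184. Endothelial genes had a negative median, -0.404 over 5 genes, as did slow fibre genes with -0.290 over 7. Both medians lay within the range that held 5% to 95% of all tested genes, -0.406 to 0.438. Fibroblast, macrophage and tendon genes had medians of 0.099, 0.052 and -0.159 over 6, 5 and 5 genes, and no gene of these lists passed the FDR. Without male sham replicate 4 and female sham replicate 7, the libraries low in slow fibre genes, the Mag difference was 0.91 ± 0.348 in males and -0.96 ± 0.358 between sham mice, and none of the 6 genes passed the FDR.

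Genes that muscle raises on loss of its nerve gave the only call among all these lists. It came between sham males and sham females, where 1.97% of all 16408 tested genes passed the FDR, and nothing is read from it about the list. Musk, the kinase of the neuromuscular junction, stood at 86.3 ± 28.3 CPM in male sham and 38.1 ± 13.1 CPM in female sham mice (SD, n = 6), a log2 difference of 1.18 ± 0.212 with an adjusted p of 0.00317 in edgeR. Musk differed by -0.72 ± 0.210 between SMC and sham males, with an adjusted p of 0.194, and its likeness to the 6 genes within groups was 0.263. The list did not go with Musk: of its 6 tested genes, 2 were higher and 4 lower in male sham than in female sham mice. Myog, a myogenic transcription factor, differed by -0.82 ± 0.316, Gadd45a by -0.47 ± 0.212, Ncam1 by -0.22 ± 0.134, Runx1 by -0.013 ± 0.200 and Chrna1 by 0.018 ± 0.179, and none of these passed the FDR. Over the 6 tested genes of the list the median likeness was 0.120.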

How the data were processed

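Gastrocnemius RNA of 24 mice was extracted with a Direct-zol kit and made into strand-specific libraries after ribosomal RNA depletion. The deposited values are raw read counts per Ensembl gene, 1 column per mouse, which the authors did not normalize. The submitters' processing notes name cutadapt 1.16, STAR 2.7.9a, featureCounts 1.6 and DESeq2 1.34.0 and the builds GRCm39 and mm39. The annotation release and strand setting are not given in the sources used here. Groups came from the labels. Symbols were matched by Ensembl ID for 52083 of 55416 genes. Exon lengths came from a GRCm38 annotation, with the exons of all transcripts of a gene merged.

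Counts were filtered with filterByExpr, scaled by TMM and fitted with 1 mean per group by the quasi-likelihood test of edgeR 4.0.16 in R 4.3.3, two-sided, with Benjamini-Hochberg adjustment over 16408 genes and an FDR of 0.05. CPM used TMM library sizes, and log2 CPM a prior count of 2. The script was tested on simulated data. Likeness is the correlation of a gene's deviation from group means with the mean standardised deviation of the 6 genes. Permutations (100000) shuffled mice within groups. Alternatives were DESeq2 1.42.0, limma 3.58.1 (voom with quality weights), other scalings and filters, fewer samples, and each library left out.

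The 6 genes and all lists were chosen with earlier results of these data known. Text names the 6 genes, from each other list genes past the FDR and up to 4 of highest CPM, and the 10 genes most alike. Some of these are not reported here. Genes named outside that rule, among them Egr2, Myog, Dhh, Lgi4, Pparg, Chat, Snap25, Syt1, Opalin, Dct, the untested genes and the keratinocyte genes, were chosen after their values were seen. The tests set each group difference against the spread between mice and treat the mice as independent. Nothing states which mice shared a cage, so whether they were independent was not tested. All 60 pairs of libraries within groups differed by more than counting noise. Floors cover counting error only, while SEs and 95% intervals of the fits carry the spread between mice.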

Additional observations from a re-analysis of the deposited data

Results flagged for a closer look

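None of the 24 sets of 6 values (6 genes in 4 groups) held a mouse whose gap to its nearest neighbour exceeded Dixon's 95% limit for 6 values, a limit that chance passes in about 1 set in 20.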

How the results depend on the processing

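Of the 24 fold changes of the 6 genes, 750 values were computed under the alternatives. Mag, Sox10 and S100b had no value under the filter of at least 10 counts in every sample, as their lowest counts were 4, 7 and 7. Of these, 724 kept their sign, 26 turned, all in the comparison of females or in the difference between the sexes, and 742 moved by less than 1 SE. Limma with quality weights gave the larger shifts for Mag: 1.37 in males and -1.43 between sham mice. Male calls over all genes were 0, but 133 by DESeq2, 93 by limma and 0 to 78 on leaving out 1 mouse, the highest without male sham replicate 5. Female calls were 56, and 268 by DESeq2, 37 with DESeq2 size factors, 215 with library totals alone, 16 by limma, 14 with only the female mice, 155 without male sham replicate 4 and female sham replicate 7, and 0 to 147 on leaving out 1 mouse, 0 without female SMC replicate 22 or 23. Calls for the difference between the sexes were 0, and 1 by DESeq2 and 0 to 1 on leaving out 1 mouse. Calls between sham mice were 324, and 575 by DESeq2, 179 with library totals alone, 58 with only the sham mice, 511 without male sham replicate 4 and female sham replicate 7, and 187 to 487 on leaving out 1 mouse. Of the 6 genes, 0 were called there, and 1, Mag, by DESeq2 and by limma, with 0 to 1 on leaving out 1 mouse. The cause of these shifts was not tested. The median r of 0.556 stayed between 0.475 and 0.583 on leaving out 1 mouse. Fewer than 20 mean reads limit Mag. The paper states that sham and SMC mice were kept in pairs for some experiments and in separate cages for others. Which applied to these mice is not given, so no paired analysis was possible.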
